A study of Mus musculus with 2 samples.

Results

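Sox5 and Erc1 are the protein-coding genes of the mouse genome that held the most HP1β peaks in embryonic stem cells (ESCs), and both were chosen by this measured number of peaks. Members were the peaks whose midpoint lay in the annotated body of Sox5 or Erc1, which gave 16 of the 1280 peaks of the deposited list, 10 in Sox5 and 6 in Erc1. The list came from 1 ChIP library made with an antibody against HP1β and 1 library of input DNA, both from ESCs of the 129P2/Ola strain (the E14 line) for which the labels name no treatment. None of the values below therefore has a replicate, and the list holds no read numbers, so that the depth behind a peak is unknown. Sox5 (ENSMUSG00000041540.9) lies on the minus strand of mm9 at chr6:143776945-144730497 and spans 953.6 kb. Erc1 (ENSMUSG00000030172.7) lies on the same strand at chr6:119520822-119798168 and spans 277.3 kb. Gene bodies, exons and introns are those of GENCODE vM1.

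HP1β is a heterochromatin protein whose chromodomain binds methylated lysine 9 of histone H3 and whose chromoshadow domain forms dimers and recruits partners. Sox5 encodes a transcription factor of the SoxD group, with an HMG box that binds DNA and a coiled coil that forms dimers with the related Sox6, and it acts with Sox6 and Sox9 in cartilage formation and also in the developing cortex. Erc1 encodes ELKS, a coiled-coil scaffold of the presynaptic active zone and of the sites where microtubules meet the cell cortex, which has also been linked to the IκB kinase complex.

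The peaks are numbered here from the annotated start of each gene in the direction of transcription. The sequences below are shown because they mark the range of the 16 peaks. They are the peak with the highest score in each gene, the Sox5 peak closest to the start of the coding transcripts, a Sox5 peak with a tandem repeat, and the Erc1 peak with the lowest GC content. Each is the plus strand of mm9, read from the NCBIM37 assembly, with every CpG dinucleotide in capitals. Peaks over 300 bp wide are shown as the central 300 bp.
Sox5 peak 7, chr6:144125259-144125558: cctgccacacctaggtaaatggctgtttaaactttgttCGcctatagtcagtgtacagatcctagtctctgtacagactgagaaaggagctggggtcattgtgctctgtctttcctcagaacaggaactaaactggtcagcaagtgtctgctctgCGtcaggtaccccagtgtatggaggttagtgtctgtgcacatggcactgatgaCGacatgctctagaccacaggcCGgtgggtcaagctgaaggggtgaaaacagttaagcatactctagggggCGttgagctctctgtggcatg
Sox5 peak 6, chr6:144155007-144155235: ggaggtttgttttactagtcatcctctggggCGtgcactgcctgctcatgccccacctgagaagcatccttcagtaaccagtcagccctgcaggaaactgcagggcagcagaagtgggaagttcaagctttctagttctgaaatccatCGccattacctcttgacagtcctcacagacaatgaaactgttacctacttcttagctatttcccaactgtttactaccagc
Sox5 peak 9, chr6:144018213-144018456: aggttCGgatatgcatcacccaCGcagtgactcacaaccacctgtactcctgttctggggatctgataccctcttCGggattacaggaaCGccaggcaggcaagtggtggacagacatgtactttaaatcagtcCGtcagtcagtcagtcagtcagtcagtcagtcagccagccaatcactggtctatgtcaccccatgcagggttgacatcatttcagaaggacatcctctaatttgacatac
Erc1 peak 2, chr6:119722394-119722683: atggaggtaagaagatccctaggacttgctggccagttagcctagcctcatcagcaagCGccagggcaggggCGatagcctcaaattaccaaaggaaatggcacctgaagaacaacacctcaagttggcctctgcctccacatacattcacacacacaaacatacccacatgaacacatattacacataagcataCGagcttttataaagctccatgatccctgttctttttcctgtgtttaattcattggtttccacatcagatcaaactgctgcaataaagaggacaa
Erc1 peak 3, chr6:119659723-119660022: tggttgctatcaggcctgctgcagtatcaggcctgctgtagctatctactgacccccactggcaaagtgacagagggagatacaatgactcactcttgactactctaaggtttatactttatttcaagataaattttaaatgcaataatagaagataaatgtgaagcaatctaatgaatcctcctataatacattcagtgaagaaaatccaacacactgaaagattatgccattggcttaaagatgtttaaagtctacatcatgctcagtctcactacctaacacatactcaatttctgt

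The 16 peaks were unlike each other in sequence. A blastn search of all 120 pairs of member peaks found no alignment with an e-value of 0.001 or lower. In each of the 16 peaks 100% of the 50-mers, the length of the reads, occurred once in the assembly. This also held for 1109 (87.7%) of the 1264 other peaks of the list and for 586 (90.9%) of the 645 other peaks in introns. It is therefore a trait of most peaks of the list. With 24-mers, 2 member peaks held sequence with many copies. In Sox5 peak 9, 87.7% of the 24-mers were unique, and the longest tandem repeat was a run of 33 bp of the unit gtca, visible in the sequence above, with up to 692 copies of a 24-mer in the genome. In Erc1 peak 1, 93.1% of the 24-mers were unique and 1 of the others had 34624 copies, while in the remaining 14 peaks no 24-mer had more than 3 copies.

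Sox5 held its 10 peaks at 10.5 peaks per Mb (95% Poisson interval 5.03 to 19.3, which covers the counting of peaks only). Each peak has a MACS score, which is 10 times the negative log10 of its p-value against the input library, and the lowest scores of the list are just above 30. The highest score in Sox5 was 52.9, at peak 7 (chr6:144125212-144125603, 392 bp wide), which ranked 19 among the 1280 peaks. Peak 3 (chr6:144526907-144527276) scored 43.5, peak 2 (chr6:144607550-144607954) scored 41.2 and peak 4 (chr6:144383323-144383657) scored 40.8. These 4 peaks were the ones in Sox5 with a score of at least 40, or a p-value no higher than 0.0001.

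The other 6 peaks of Sox5 lay close to the cutoff. Peak 1 (chr6:144670749-144671011) scored 34.0, peak 5 (chr6:144172692-144172987) scored 31.8 and peak 6 (chr6:144155007-144155235) scored 33.8. Further along the gene, peak 8 (chr6:144051859-144052130) scored 33.9, peak 9 (chr6:144018213-144018456) scored 33.3 and peak 10 (chr6:143857776-143858078) scored 32.5. All 6 had a score under 35, as did 3 of the 6 peaks in Erc1. The median score of the 1264 other peaks was 33.2, so a score under 35 is common in the list.

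The annotated body of Sox5 is long because of non-coding transcripts. The gene has 14 annotated transcripts, of which 8 are coding, and the coding ones span 381.1 kb from chr6:143776945-144158078. Of the 10 peaks, 5 lay in this span (13.1 per Mb) and 5 lay upstream of it, in 572.4 kb where the only transcripts that reach the peaks are Sox5-008 and Sox5-009, neither of them coding (8.73 per Mb). Peaks 1 to 5, which include 3 of the 4 peaks with a score of at least 40, would therefore be outside Sox5 in an annotation of its coding transcripts only. Peak 1 also lay in the body of Gm15686, a non-coding gene on the opposite strand at chr6:144669431-144708403, outside its exons. The other non-coding genes within Sox5, namely 4933415D12Rik, Gm15685, Gm10396, 4933425H06Rik and Gm7518, each had 0 peaks.

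**Figure D1:**
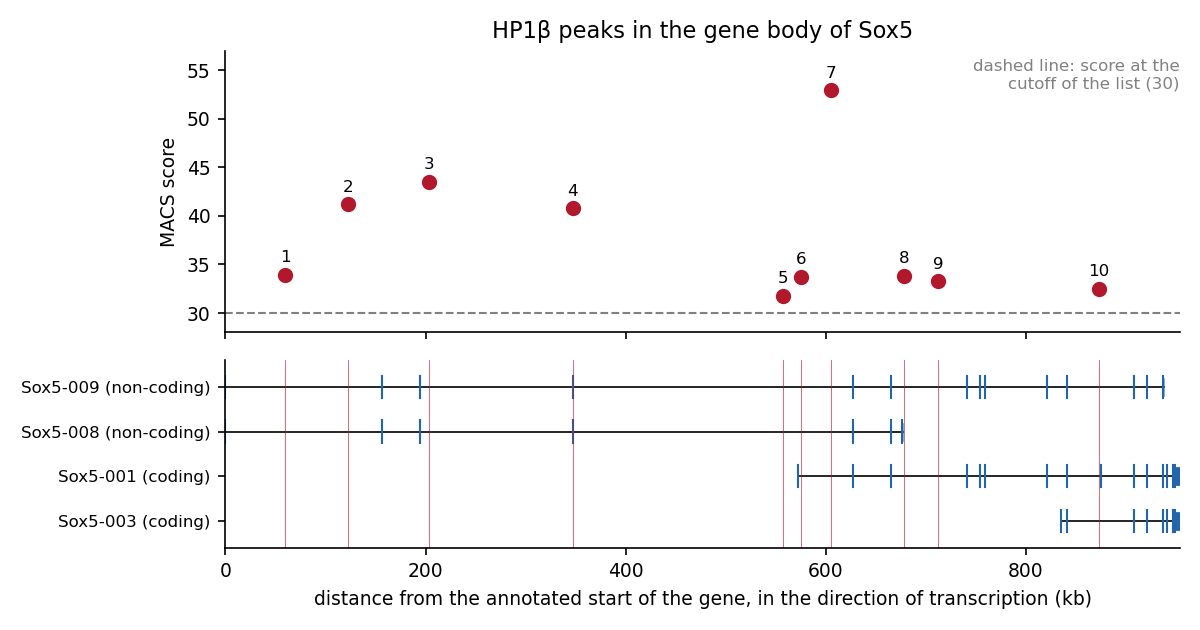
HP1β peaks in Sox5 by distance from the annotated gene start in kb (horizontal axis) and by MACS score (vertical axis), numbered as in the text, with 4 of the 14 transcripts below them (boxes and ticks are exons, thin red lines mark the peaks). Peaks 1 to 5 lie before the start of the coding transcripts, and peak 7 has the highest score, 52.9.

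Peaks 5, 6 and 7 lay near the start of the long coding transcripts, within 47.8 kb of each other. Relative to the first of these starts, the midpoint of peak 5 lay at -14.8 kb, that of peak 6 at 2.96 kb and that of peak 7 at 32.7 kb, negative values being upstream. Otherwise the peaks were far apart. The gaps between neighbouring peaks of Sox5 ran from 17.5 kb to 210.3 kb with a median of 73.1 kb, and even spacing over the gene would give 95.4 kb. The longest gap lay between peaks 4 and 5.

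All 10 peaks of Sox5 were in introns. In Sox5-009, the transcript that covers all of them, they fell into the 5 longest of its 13 introns. Intron 4 (279.2 kb) held 3 peaks, introns 1 (156.1 kb), 3 (153.3 kb) and 6 (75.1 kb) held 2 each and intron 11 (67.2 kb) held 1, while the longest intron with 0 peaks had 62.3 kb. In Sox5-001, a coding transcript of 15 exons, peaks 6 and 7 were in intron 1, peaks 8 and 9 in intron 3 and peak 10 in intron 8. Peak 4 came closest to an exon, at 313 bp, and this exon belongs to the non-coding transcripts. The smallest distance to coding sequence was 1723 bp, at peak 10. The short coding transcripts such as Sox5-003, which start further downstream, contained only peak 10.

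Erc1 held its 6 peaks at 21.6 peaks per Mb (95% Poisson interval 7.94 to 47.1), all of them within 160.8 kb. Peak 2 (chr6:119722394-119722683, 290 bp wide) had the highest score, 41.6, which ranked 126 in the list. Peak 1 (chr6:119756489-119756924) scored 37.0 and peak 6 (chr6:119596101-119596506) scored 36.0. Lower scores were found for peak 3 (chr6:119659640-119660103), with 31.03, peak 4 (chr6:119647511-119647796), with 31.6, and peak 5 (chr6:119598944-119599170), with 30.4. Only 1 of the 6 peaks therefore reached a score of 40, against 4 of the 10 in Sox5.

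Unlike in Sox5, all 6 peaks of Erc1 lay within its coding transcripts, since all 3 annotated transcripts are coding. The first 41.2 kb and the last 75.3 kb of the gene had 0 peaks. In Erc1-201, which has 19 exons, peak 1 was in intron 1, peak 2 in intron 6, peaks 3 and 4 in intron 14 and peaks 5 and 6 in intron 15. Intron 15 is the longest, with 63.8 kb, and its peaks 5 and 6 were 2.44 kb apart, the closest neighbours among the member peaks. The longest intron with 0 peaks had 25.3 kb, while peak 2 was in one of 12.4 kb. Peak 2 was also the member peak closest to an exon. It lay 42 bp beyond the last exon of the short transcript Erc1-203, and 997 bp from the nearest coding sequence.

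**Figure D2:**
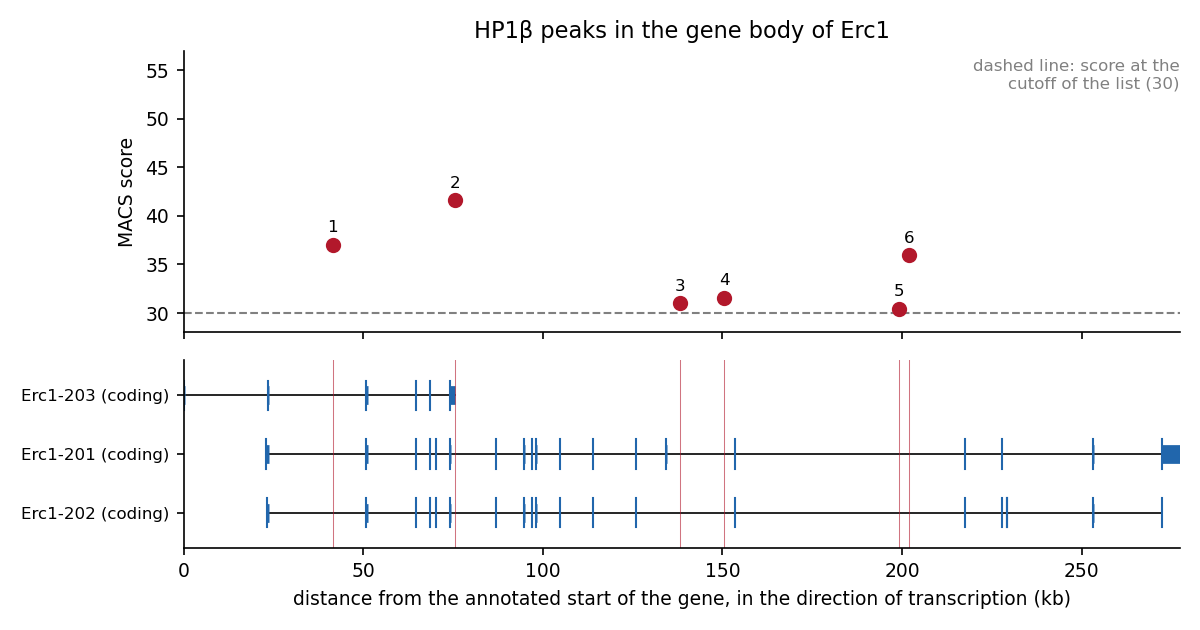
HP1β peaks in Erc1 by distance from the annotated gene start in kb (horizontal axis) and by MACS score (vertical axis), with the 3 transcripts below them (boxes and ticks are exons, thin red lines mark the peaks). Peak 2, with the highest score of 41.6, lies at the end of the short transcript Erc1-203, and peaks 5 and 6 are side by side.

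Both genes together, 16 of 16 peaks (100%) had their midpoint in introns, and none overlapped an exon by 1 bp (0 of 16). The exact Clopper-Pearson interval of this share was 79.4% to 100%. Introns made up 98.0% of the length of the 2 genes, so that 0.313 exon peaks would be met by length alone, and no preference can be read from the absence of exon peaks. Of the 737 other peaks in gene bodies, 92 (12.5%) were in exons, and of the 61 such peaks on distal chromosome 6 there were 5 (8.20%). The exon share of the genes that hold these peaks was not analysed here, so no contrast with the 2 genes is read from them.

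The number of peaks in both genes was read against genes in general. Among 22367 protein-coding genes, 630 (2.82%) had at least 1 peak and 68 (0.304%) had at least 2. Long genes have more room for peaks, and of the 2401 protein-coding genes of at least 100 kb 292 (12.2%) had at least 1. On distal chromosome 6, taken from 105 Mb to the chromosome end, this held for 24 of 46 such genes (52.2%). Sox5 and Erc1 were selected on this number, and the border of distal chromosome 6 was drawn by an excess of peaks. These shares are therefore given as background. By peaks per Mb, Erc1 ranked 4 and Sox5 ranked 18 among the 2401 genes. Gm13242 on chromosome 4 (26.4 per Mb), Bicd1 on distal chromosome 6 (25.9) and Ptpn4 on chromosome 1 (22.3) were above Erc1.

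**Figure D3:**
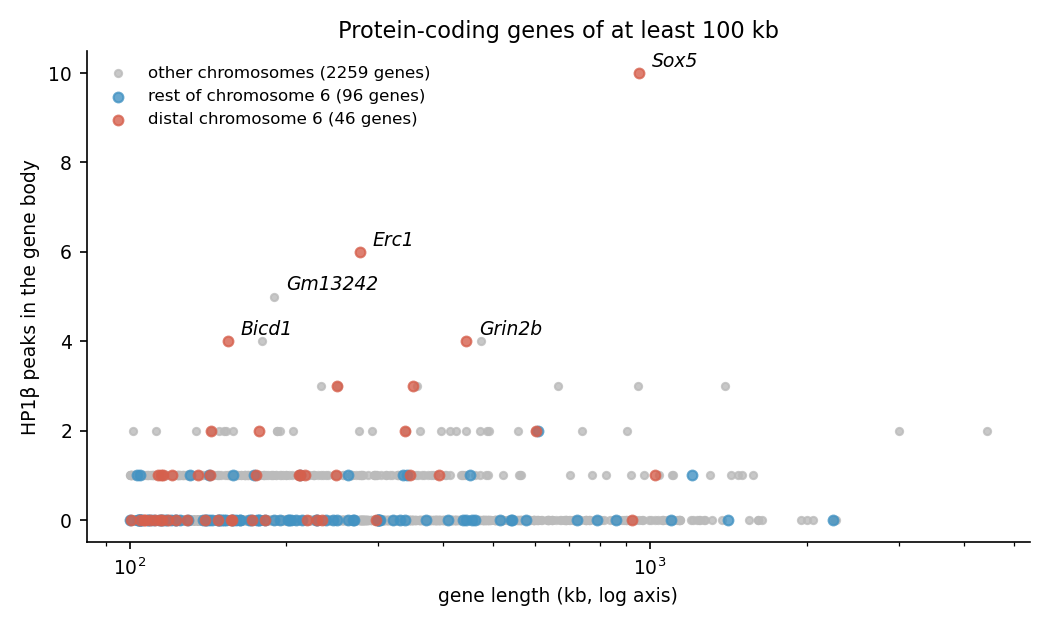
Number of HP1β peaks in the gene body (vertical axis) against gene length in kb (horizontal log axis) for 2401 protein-coding genes of at least 100 kb, 1 point per gene, coloured by position. Sox5 with 10 peaks and Erc1 with 6, the numbers by which they were chosen, stand above all other genes shown, and most genes are at 0.

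Both genes lie in distal chromosome 6, whose border was drawn where an earlier search of these data found an excess of peaks. Its higher density follows in part from that choice and is given as a description. This part held 125 peaks in 44.4 Mb outside assembly gaps (2.81 per Mb), against 0.422 per Mb in the rest of chromosome 6 and 0.461 on the other chromosomes. Sox5 and Erc1, which were chosen by their number of peaks, held 12.8% of its peaks in 2.77% of its length. Without them the density was 2.52 per Mb (95% Poisson interval 2.07 to 3.04). Whether the distal part is present in more copies in these cells was not tested, since the list holds no reads of the input library.

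The nearest peaks outside Sox5 were far from it. Within 1 Mb on either side of the gene there were 3 peaks (1.5 per Mb, 95% Poisson interval 0.309 to 4.38), and within 5 Mb there were 32 (3.27 per Mb, 2.24 to 4.62). The interval of the narrower window covers the density of the wider one, so no lower density next to the gene can be read from these counts. The nearest peak on the 3′ side was 974.3 kb from the gene body, at chr6:142802167-142802666 in St8sia1, with a score of 40.6. On the 5′ side it was 790.1 kb away, at chr6:145520632-145520973 in Ifltd1, with a score of 30.8. Just inside the borders, peak 10 lay 80.8 kb and peak 1 lay 59.5 kb from the respective end. The adjacent protein-coding genes Etnk1, which encodes an ethanolamine kinase, and Bcat1, which encodes a branched-chain aminotransferase, each had 0 peaks.

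Erc1 had closer neighbours. Within 1 Mb on either side of it there were 5 peaks (2.50 per Mb, 95% Poisson interval 0.812 to 5.83). Within 5 Mb there were 23 peaks (2.30 per Mb, 1.46 to 3.45). The nearest of them was 117.4 kb upstream, at chr6:119915522-119915894 in Wnk1, which encodes a kinase that regulates ion transport, with a score of 33.6. On the 3′ side the nearest peak was 310.7 kb away, at chr6:119209813-119210170 in Cacna2d4, an auxiliary calcium channel subunit, with a score of 41.8. The adjacent protein-coding genes Wnt5b, which encodes a secreted Wnt ligand, and 3110021A11Rik, which starts 0.043 kb from Erc1 on the opposite strand, each had 0 peaks.

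Genes within 2 times the length of Sox5 were then set beside it, as a description only, since Sox5 was chosen by its number of peaks. On distal chromosome 6 there were 3 of them, with 3 peaks in all (1.18 per Mb, 95% Poisson interval 0.243 to 3.44). Cacna1c, a calcium channel subunit, had 2 peaks with scores of 40.9 and 60.7, the neural adhesion gene Cntn4 had 1 and Grm7, a metabotropic glutamate receptor, had 0. On the rest of chromosome 6 there were 11, with 3 peaks in all (0.338 per Mb, 0.0697 to 0.988), of which Magi1 held 2 and Fam190a held 1, while Cadps2 had 0. On the other chromosomes there were 200, with a density of 0.263 per Mb (0.188 to 0.358). None of these 200 held more than 3 peaks, the number found in Thsd7b, Arfip1 and Cdkal1, and 28 of them (14%) held any. The density of Sox5 was thus 8.90-fold, 31.02-fold and 39.8-fold that of these sets, respectively. With lengths within 1.5 times that of Sox5 the density was 0.515 per Mb on distal chromosome 6 and 0.164 on the rest of chromosome 6, so the size of the first and second of these folds depends on the genes compared.

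Around the length of Erc1 there were more genes to compare, again as a description only, since Erc1 was chosen by its number of peaks. The 25 on distal chromosome 6 had 4.88 peaks per Mb (95% Poisson interval 3.24 to 7.05), and 15 of them (60%) held a peak. The nearest to Erc1 in number were Bicd1, a dynein adaptor, and Grin2b, an NMDA receptor subunit, with 4 peaks each, followed by the phosphodiesterase gene Pde3a and by Ano2, a chloride channel gene, with 3 each. The 61 genes on the rest of chromosome 6 had 0.517 per Mb (0.223 to 1.02), and none held more than 1 peak, as found in Foxp1, Chchd6 and Ppp1r9a. The 1311 genes on other chromosomes had 0.563 per Mb (0.485 to 0.651), and Gm13242 with 5 peaks, Ptpn4 with 4 and Bcas3 with 4 held the most. The density of Erc1 was 4.44-fold, 41.9-fold and 38.4-fold that of the sets. Bicd1, with 25.9 per Mb, was the only one of the 25 distal genes that was denser than Erc1, and on other chromosomes there were 2.

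**Figure D4:**
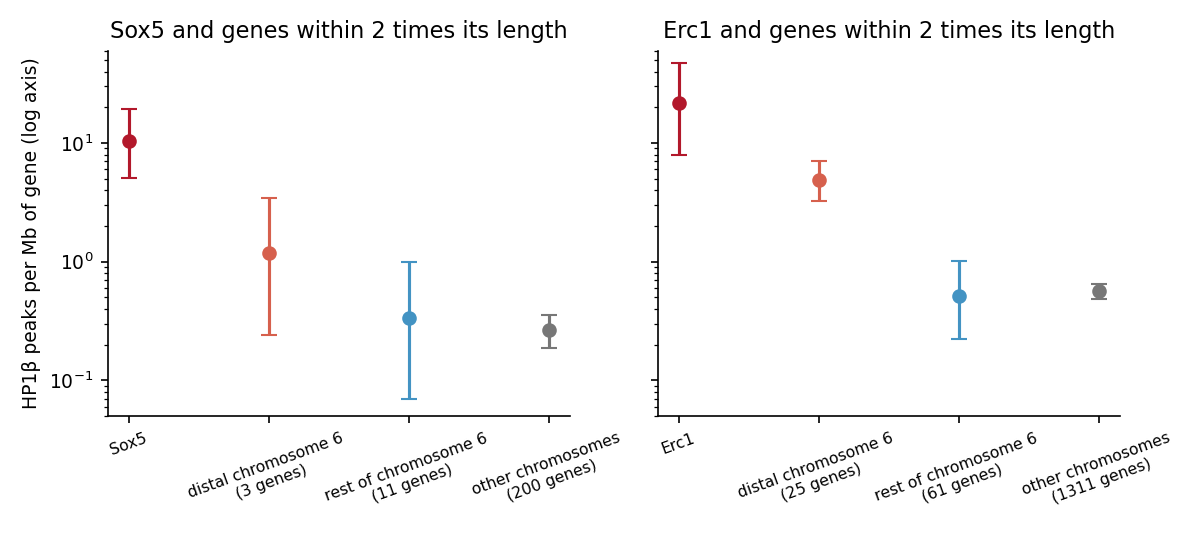
HP1β peaks per Mb of gene body (vertical log axis) in Sox5 (left) and Erc1 (right) and in protein-coding genes within 2 times their length at each position. Bars are 95% Poisson intervals, which cover the counting of peaks only and not the choice of both genes by their number of peaks. Sox5 at 10.5 and Erc1 at 21.6 per Mb lie above the 3 sets beside them, which that choice favours.

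The peaks of the 2 genes were close to other peaks in score and somewhat wider. Their median score was 33.9, with 11 of the 16 above the median of 33.2 of all other peaks. The 95% interval of the median from its order statistics was 31.8 to 41.2. The median was 33.0 for the 737 other peaks in gene bodies and 33.9 for the 109 other peaks of distal chromosome 6. A score of at least 40 was reached by 5 of the 16 (31.2%), by 89 of the 737 (12.1%) and by 18 of the 109 (16.5%). A score of at least 50 was reached by 1 of the 16 (6.25%), by 11 of the 737 (1.49%) and by 4 of the 109 (3.67%). The median width was 299.5 bp (227 to 464 bp) in the 16 peaks, 251 bp in the other gene bodies and 296 bp on distal chromosome 6. The median width of the member peaks was thus close to that of the peaks around them.

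Base composition differed among the member peaks. The median GC content was 48.5% in Sox5 (36.1% to 50.5%) and 44.4% in Erc1 (34.3% to 46.5%), whereas the gene bodies had 42.7% and 40.2%. Of the 16 peaks 13 were above the GC content of their own gene. The same share among the other peaks was not analysed here, so nothing particular to the 16 is read from this count. The most GC-rich was Sox5 peak 3, while Sox5 peak 4 and Erc1 peak 3 had the lowest values. The median of the 1264 other peaks was 47.4%, which 6 of the peaks of Sox5 and 0 of those of Erc1 exceeded. CpG dinucleotides were more frequent in Sox5, with a median of 13.4 per kb of peak (10.9 per kb in the whole gene), than in Erc1, with 7.47 per kb (6.75 in the whole gene). Sox5 peak 2, the widest of Sox5 with 405 bp, held 8 of them, and Erc1 peak 3, shown above, held 0. Of the 1264 other peaks, 166 (13.1%) also held 0. Across all other peaks the median was 9.30 per kb.

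**Figure D5:**
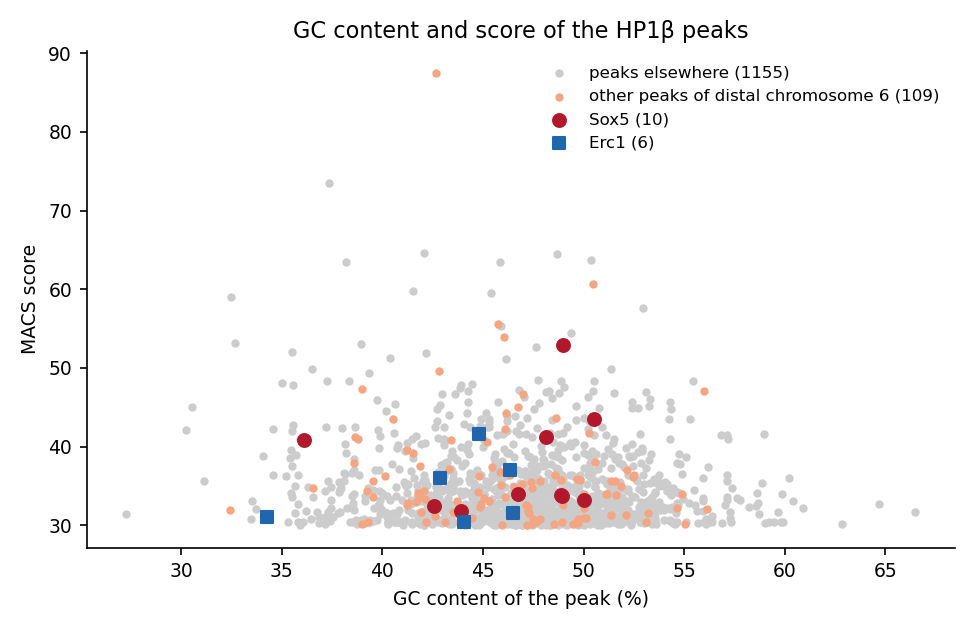
MACS score (vertical axis) against GC content in percent (horizontal axis) of all 1280 HP1β peaks, 1 point per peak, with those of Sox5 and Erc1 marked. The 16 marked peaks lie among the others, from 34.3% to 50.5% GC and with scores from 30.4 to 52.9.

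Of 20 genes of the SOX family, 19 were matched to the annotation as protein-coding genes, and Sox5 was the only one of them with a peak. Sox1 was not analysed here. The other 18 had 0 peaks (0%) over 0.706 Mb, with 2.82% of all protein-coding genes holding a peak, so nothing particular to these genes can be read from it. Sox6, its closest partner, is also long (567.4 kb on chromosome 7) and had 0 peaks, as did most genes of the length of Sox5, which allows up to 6.501 per Mb at the upper end of a 95% Poisson interval. Sox13, the remaining SoxD gene, had 0 peaks over 42.1 kb, too short to compare. Most SOX genes are short, with a median length of 4.795 kb. Of 13 genes of the cartilage programme in which SoxD proteins act, such as Sox9, the collagen gene Col2a1 and the aggrecan gene Acan, Sox5, which was chosen by its peaks, was the only one with a peak. The other 12 had 0 over 1.09 Mb, beside the 2.82% of all protein-coding genes that held a peak, and nothing is read from this count.

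Erc2, the paralog of Erc1 that encodes the active zone protein CAST, had 0 peaks over 856.1 kb of chromosome 14, which allows up to 4.31 per Mb by the same interval. Of 32 genes of ELKS and its partners, 31 were annotated (Rab6a was not analysed here) and their median length was 143.5 kb. Leaving out Erc1, which was chosen by its peaks, 4 of 30 (13.3%) had a peak. They were Ppfibp1, a liprin, with 2 peaks, Unc13b, a vesicle priming factor, with 2, Rims2, an active zone scaffold, with 1, and Cacna1a, a presynaptic calcium channel subunit, with 1. The share was 2.82% among all protein-coding genes and 12.2% among those of at least 100 kb. Neither set is matched to the list in length, which runs from Nfkbia (3.24 kb) to genes such as Rims1 (635.3 kb). All 4 genes with a peak are longer than 100 kb. Whether the partners differ from genes of their length was not tested. Ppfibp1 also lies on distal chromosome 6, at chr6:146837009-146980547. The 30 partners other than Erc1 had 1.07 peaks per Mb in all, against 21.6 in Erc1, a difference that the choice of Erc1 by its peaks favours. No gene of the list other than Erc1 had more than 2 peaks.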

How the data were processed

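According to the methods and labels, reads of 1 HP1β ChIP library and 1 input library were mapped to mm9 by Bowtie, of which unique alignments with at most 1 mismatch were kept, and peaks were extracted with MACS 1.4 at a cutoff of 0.001. The peak positions and the score were deposited by the authors, and the score of a peak is its −log10 p-value multiplied by 10. Depth is unknown.

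The reference was NCBIM37 with GENCODE vM1, the same build as the list, and coordinates count from 1. Peaks were assigned by midpoint. Distances between peaks and to exons were taken edge to edge. Intervals (95%) cover the counting of peaks only. Copies of 50-mers and 24-mers were exact matches on both strands. Counting was tested on simulated data. Genes named were the members, their adjacent genes, their paralogs, the members of 3 lists with a peak, and the 3 genes of similar length with the most peaks in each part of the genome. Ano2, genes cited by rank of density, those inside Sox5 and those holding the nearest peaks outside were added after their values were seen. The members, the lists and the border of distal chromosome 6 were chosen with earlier results of these data known, so no test was made. Alternatives were a score of at least 40, 1 bp of overlap, merged peaks, other lengths and gene kinds, 50 kb flanks, and, after the values were seen, coding transcripts only. Scripts ran in Python 3.11.15 with pandas 2.3.3 and numpy 2.4.6 for tables, scipy 1.17.1 for intervals, numba 0.67.0 for k-mers and pysam 0.24.0 for sequence. Alignments used blastn 2.17.0, indexing samtools 1.23.1 and figures matplotlib 3.10.9.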

Additional observations from a re-analysis of the deposited data

How the results depend on the processing

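The 14 results were recomputed under 51 alternatives, of which 4 were added after the values were seen, and 40 stayed within 1.5 times the count or within the interval of the value. Restricting the list to scores of at least 40 left 4 peaks in Sox5 (4.195 per Mb) and 1 in Erc1 (3.61 per Mb). In genes of similar length to Sox5 this gave 0.785 per Mb on distal chromosome 6. The same limit gave 0.113 per Mb on the rest of chromosome 6 and 0.0263 on other chromosomes. In genes of similar length to Erc1 it gave 0.871 per Mb on distal chromosome 6. There it gave 0.0646 per Mb on the rest of chromosome 6 and 0.0704 on other chromosomes. The single peak left in Erc1 allows no comparison of its density. The span of the coding transcripts left 5 peaks in Sox5. Per kb of peak width, the median score was 119.7 for the peaks of Sox5 and Erc1 and 133.7 for the other peaks in gene bodies, so the order of these medians turned. The list came from 1 library without read numbers. Which of the peaks close to the cutoff would be found again was not tested. The number of copies of distal chromosome 6 in the input library was not analysed here.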
